A study of Mus musculus with 12 samples.

Results

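The lysosomal hydrolases and their cofactors are the soluble enzymes of the lysosome lumen, with the proteins that some of them need to work. The set held 45 genes, listed by symbol and by role, and each was found in the count tables through the symbol of its Ensembl gene identifier. All 45 were present among 54838 genes, and all 45 were among the 31109 genes kept after a filter on low counts. They comprised 10 cysteine peptidases, 5 aspartic and serine peptidases, 10 hydrolases and activators of sphingolipids and gangliosides, 4 glycosidases of glycoproteins and glycogen, 7 glycosaminoglycan hydrolases, 8 lipases, thioesterases and phosphatases, and progranulin (Grn).

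RNA was sequenced from spinal cord of mice at postnatal day 60, of either sex, in 4 groups of 3 libraries. Control mice were Olig1+/+;Tet1fl/fl and Tet1 mutants were Olig1cre/+;Tet1fl/fl, so that both carried floxed Tet1 alleles and the mutants also carried 1 Cre allele at the Olig1 locus, which removes exon 4 of Tet1 in cells that express OLIG1. Tissue came from the demyelinated ventrolateral white matter 4 days after lysolecithin injection (4dpl) or from the unlesioned contralateral side. It was dissociated with papain and enriched for oligodendroglial cells on a Percoll gradient without sorting, so other cells of the tissue remained.

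Totals ran from 34805086 to 67251544 counts per library, and the lowest count of any member in any library was 288. Genes at 0 numbered 10322 to 14815 in unlesioned libraries and 17322 to 20874 in 4dpl libraries. The part of this separation in the lesion differences was not tested. Tet1, the targeted gene, did not separate the genotypes at the level of the whole gene. It stood at 16.1 ± 1.93 CPM (counts per 1000000 of the TMM-scaled library total; mean ± SD, n = 3) in unlesioned controls and 12.8 ± 3.28 in unlesioned mutants, and at 12.1 ± 0.390 against 15.2 ± 5.55 at 4dpl. Loss of 1 exon need not lower such a count, so this did not check the genotype, and mutant below means the libraries labelled as mutant. Markers of mature oligodendrocytes summed to 14551 to 68816 CPM, against 48.7 to 266 CPM for oligodendrocyte progenitors, while neutrophil markers summed to 17050 to 94194 CPM. Mutant 4dpl library 3 stood apart with the 68816 CPM of mature oligodendrocyte markers, and mutant 4dpl library 2 with 85139 CPM of neutrophil markers, where the other 4dpl libraries lay between 17050 and 28389. The labels do not say whether every library came from a separate mouse, so p-values measure only the spread between these libraries.

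Lysosomal hydrolases are made in the endoplasmic reticulum, tagged with mannose 6-phosphate or carried by sortilin, and activated in the acid lumen, where they break down proteins, lipids, glycans and nucleic acids taken up or recycled by the cell. In demyelinated white matter, phagocytes such as microglia and macrophages take up myelin debris, whose lipids and proteins reach this compartment. Many of the genes are known targets of the transcription factors TFEB and TFE3, which bind an E-box sequence near gene starts.

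The E-box letters CACGTG were searched in the RefSeq windows from 250 bases before to 50 bases after each gene start (GRCm38.p6). Windows existed for 40 of the 45 members, with 49 windows in all. CACGTG, which reads the same on both strands, was present in 12 of the 40 genes (30.0%), against 2187 of 27025 genes (8.09%) with such windows. The longer TCACGTG, which contains the first motif and was searched on both strands, was present in 10 of the 40 genes (25.0%), against 1160 of all genes (4.29%). Counted per window, CACGTG was in 12 of 49 member windows (24.5%) and in 2349 of 32851 windows overall (7.15%). The 12 genes were Arsa, Ctsa, Ctsd, Ctsf, Ctsl, Dpp7, Gaa, Gla, Glb1, Lgmn, Naglu and Sgsh. These matches describe letters in the windows and no binding was measured. The shares do not depend on the lesion, and the lesion changes of members with and without the letters were not compared. The stretches around CACGTG that touch no exon of the count annotation are shown for the members that have one, 5′ to 3′ on the gene's strand, in lower case with the motif in capitals, which begins at position -73 from the start of Dpp7, -140 of Gaa, -48 of Glb1 and -49 of Lgmn.
Dpp7, chr2:25356360-25356445, minus strand: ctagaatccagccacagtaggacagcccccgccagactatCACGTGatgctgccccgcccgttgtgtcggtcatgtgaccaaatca
Gaa, chr11:119267783-119267868, plus strand: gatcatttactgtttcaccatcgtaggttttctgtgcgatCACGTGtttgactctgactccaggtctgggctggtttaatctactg
Glb1, chr9:114400990-114401075, plus strand: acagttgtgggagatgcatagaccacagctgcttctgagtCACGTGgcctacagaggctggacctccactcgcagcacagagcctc
Lgmn, chr12:102439096-102439181, minus strand: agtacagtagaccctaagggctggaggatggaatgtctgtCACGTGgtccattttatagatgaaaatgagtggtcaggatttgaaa

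Levels differed by about 3 orders of magnitude between members. They were compared between genes as RPKM (mean ± SD, n = 3), the CPM divided by the length of a gene's exons in kilobases as given in the tables. Cathepsin S (Ctss), a cysteine peptidase abundant in myeloid cells, had the highest unlesioned level, at 1601 ± 547 RPKM in controls and 1539.9 ± 666 in mutants. Cathepsin D (Ctsd), the major aspartic peptidase of the lysosome, followed with 1415 ± 685 and 1234 ± 780.3 RPKM, within the spread of Ctss. Gm49369 covers 34.4% of the exon bases of Ctsd, so its level and its unlesioned place relative to Ctss are uncertain. At 4dpl the order of these neighbours was the other way, with Ctsd at 6750.0 ± 469 RPKM in controls and Ctss at 4154 ± 949. Prosaposin (Psap), the precursor of the saposins that present sphingolipids to their hydrolases, was the third in every group and reached 2536 ± 445 RPKM in 4dpl controls. Ctsb at 2142 ± 39.5, Ctsz at 1741 ± 145 and Grn at 1243 ± 148 RPKM came next in that group. Galactosylceramidase (Galc), the enzyme that degrades the main galactolipid of myelin, had the lowest level of all 45 in every group, from 1.80 ± 0.294 RPKM in unlesioned controls to 4.58 ± 0.357 in 4dpl controls.

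**Figure D1:**
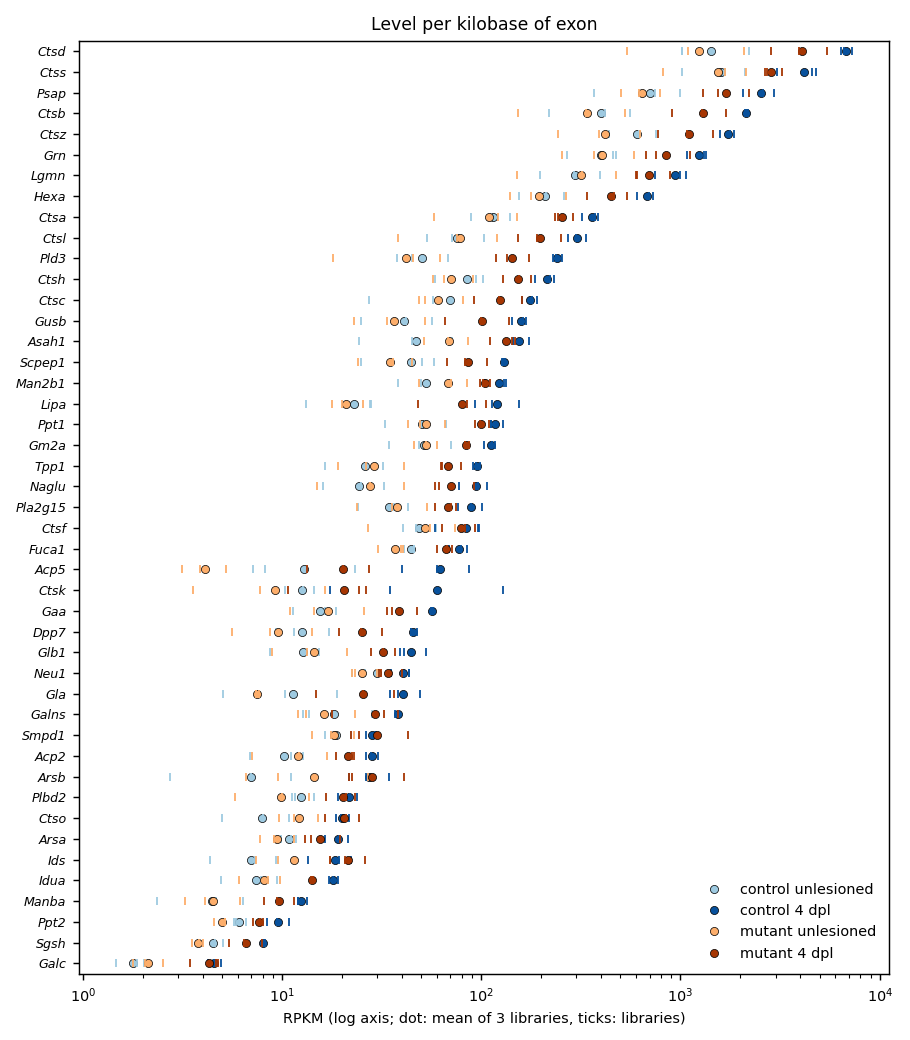
RPKM (log axis) of the 45 members, ordered by their mean in 4dpl control libraries; dots are means of 3 libraries and ticks the libraries. Ctsd and Ctss lead at 4dpl and Galc is last, and in most rows the 4dpl dots lie to the right of the unlesioned dots of the same genotype.

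Summed over the 45 members, the level was 17919 ± 5701 CPM in unlesioned controls and 65575 ± 3298 CPM in 4dpl controls (SD, n = 3). In mutants the sums were 16690 ± 7135 CPM unlesioned and 43089 ± 10510 CPM at 4dpl. As a share of all counts the members took 1.997% ± 0.865 and 5.73% ± 0.455 in unlesioned and 4dpl controls. In both genotypes every 4dpl library lay above every unlesioned library. Ctsd, Ctsb, Psap, Ctss and Grn made up between 56.5% and 70.7% of the sum in each library. This sum is a description with no test.

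The question of the first comparison was which of these genes differ between demyelinated and unlesioned tissue. In controls, 39 of the 45 rose at 4dpl and 0 fell by edgeR's quasi-likelihood test, at p under 0.01 and an adjusted p (Benjamini-Hochberg over all genes tested) under 0.05. Over all genes tested 5.12% were called higher. The median log2 difference of the members was 1.53, against -0.36 over all genes tested, and 43 of 45 had all 3 lesioned libraries above all 3 unlesioned ones, where 16.5% of all genes did. Ctsf and Neu1 were the exceptions to that separation. The 6 not called were Ctsc, Ctsf, Smpd1, Neu1, Galns and Plbd2, with log2 differences from 0.45 (Neu1) to 1.35 (Ctsc), all above 0. The adjusted p of the 39 lay close below the threshold, from 0.0214 to 0.0466, and the count changed when single libraries were left out. It was 0 without unlesioned control library 2 (0.003% of all genes called higher in that fit) or without 4dpl control library 1 (0.00883%) or 2 (0.00589%), 10 without unlesioned control library 3 (0.249%) and 27 without unlesioned mutant library 3 (1.54%). The calls over all genes thus fell too, while the median log2 difference stayed between 1.27 and 1.69 over all 12 libraries left out in turn.

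In mutants, all 45 log2 differences were above 0, with a median of 1.08 against -0.18 over all genes, and 40 of 45 had an unadjusted p under 0.05. None passed the threshold after adjustment, where 0.0225% of all genes were called higher. The smallest adjusted p was 0.0522 (Lipa, Galc, Pld3 and Acp5). The groups separated fully for 40 members, against 18.8% of all genes, and the 5 that overlapped were Ctsf, Ctsk, Smpd1, Galns and Arsb. The count turned on the setting. It was 35 at an adjusted p under 0.10 (9.55% of all genes called higher), 26 with the newer form of the edgeR fit (4.42%) and 28 with DESeq2 (4.28%). It was 32 without unlesioned control library 1 (7.72%) and 32 without unlesioned mutant library 1 (6.36%). Averaged over the genotypes, 43 of 45 rose and 0 fell, where 14.2% of all genes were called higher, with a median of 1.34 against -0.28. Ctsf missed at 0.70 ± 0.24 (standard error, SE; adjusted p = 0.031, with an unadjusted p just above 0.01) and Neu1 at 0.44 ± 0.18 (adjusted p = 0.0621). This averaged count stayed between 42 and 44 when any 1 of the 12 libraries was left out.

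**Figure D2:**
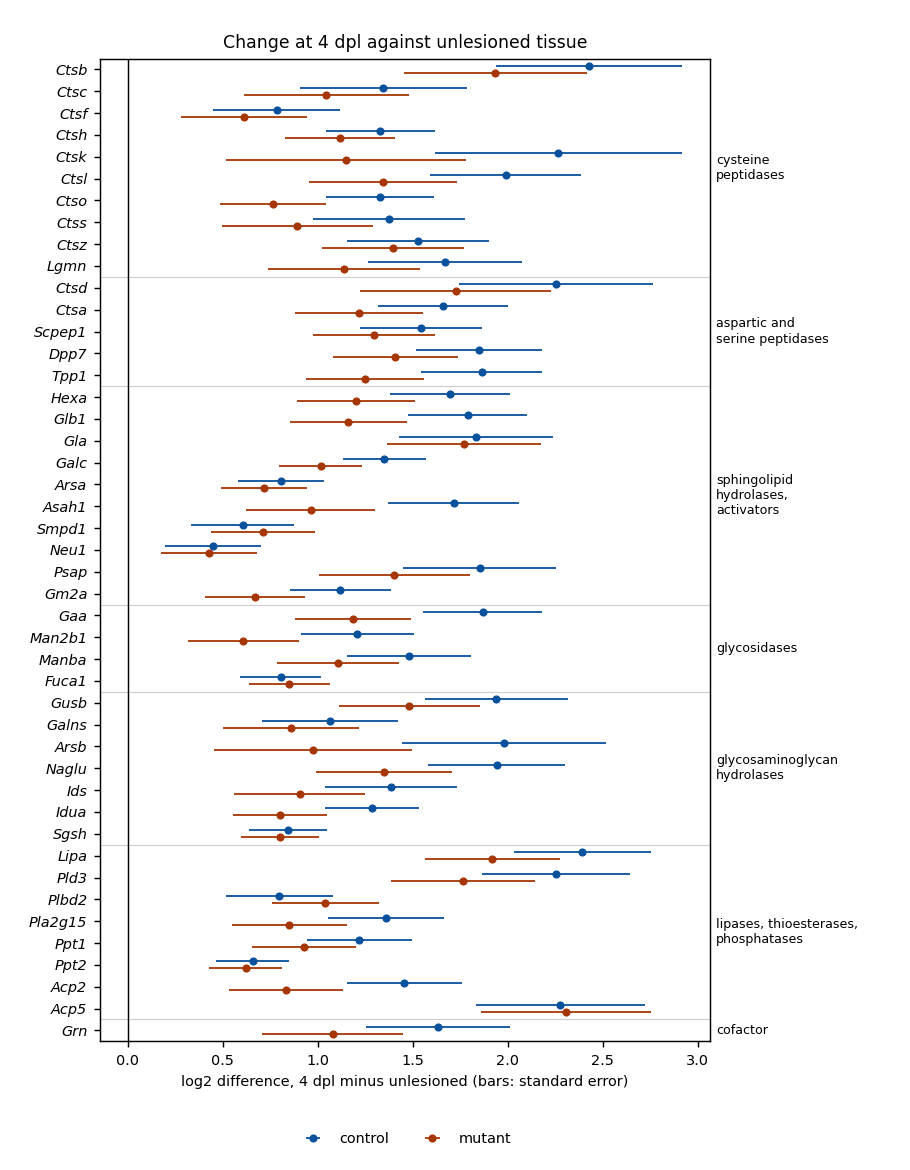
Log2 difference between 4dpl and unlesioned tissue for the 45 members by role, in control (blue) and mutant (brown) libraries, with bars for the standard error of the fit on 12 libraries. All 90 points lie to the right of 0, and the mutant point is to the left of the control point for 41 members.

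Of the cysteine peptidases, 8 of 10 rose in controls and 9 of 10 in the average of the genotypes. Cathepsin B (Ctsb), an endopeptidase and carboxypeptidase, had 2522, 1320.4 and 3384 CPM in the 3 unlesioned control libraries and 12792, 12864 and 13237 CPM in the 3 at 4dpl. The mutant libraries held 3178, 923 and 2041 CPM unlesioned and 10245, 7742 and 5499.6 CPM at 4dpl. The lesioned controls were nearly equal and stood above all other libraries, and the lesioned mutants stood between them and the unlesioned groups. The log2 difference was 2.43 ± 0.49 (SE; adjusted p = 0.0256) in controls and 1.93 ± 0.48 (adjusted p = 0.0544) in mutants.

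Cathepsin L (Ctsl), a broad endopeptidase, had 464, 349 and 667 CPM in unlesioned and 1768, 1930.3 and 2175 CPM in 4dpl controls. In mutants the values were 778, 249 and 491 CPM unlesioned and 1629, 1236 and 988 CPM at 4dpl. Lesioned libraries were above unlesioned ones in both genotypes, by 1.99 ± 0.40 (adjusted p = 0.0256) and 1.34 ± 0.39 (adjusted p = 0.0624) on the log2 scale. Reads shared with overlapping models (Gm47123 and Gm49230 cover 26.8% of its exon bases) could be missing from this count.

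Cathepsin O (Ctso) was low, at 55.9, 25.5 and 41.3 CPM in unlesioned and 101, 95.4 and 111 CPM in 4dpl controls. Its mutant libraries had 77.7, 49.7 and 58.7 CPM unlesioned and 108, 83.8 and 124 CPM at 4dpl. The difference in controls was 1.33 ± 0.28 (adjusted p = 0.0265) and in mutants 0.76 ± 0.28 (adjusted p = 0.0918).

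Cathepsin K (Ctsk), the collagen-degrading peptidase of osteoclasts, had 21.9, 19.3 and 15.7 CPM in unlesioned and 26.4, 195 and 52.5 CPM in 4dpl controls. Among mutants it stood at 24.7, 5.40 and 11.7 CPM unlesioned and 16.1, 40.02 and 36.7 CPM at 4dpl. Control 4dpl library 2 stood far above every other library. The control log2 difference of 2.27 ± 0.65 (adjusted p = 0.0449) was 1.08 without that library, with an adjusted p of 0.209, and in mutants the groups overlapped (1.15 ± 0.63, adjusted p = 0.205). Summed fibroblast markers were likewise highest in that library, at 115 CPM against 13.1 to 57.9 CPM in all others, and so were the osteoclast fusion genes Ocstamp (10.4 CPM) and Dcstamp (6.28 CPM). The sum of all listed osteoclast markers, mostly Mmp9, was not. It stood at 959 CPM there, against 1436 and 960 CPM in the other 4dpl controls. The part of those cells in the result was not tested.

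The other members that rose in controls were Ctss (1.38), Ctsh (1.33), Ctsz (1.53) and legumain (Lgmn, 1.67), an asparaginyl endopeptidase that cleaves other hydrolases into their mature forms. Ctsc, the dipeptidyl peptidase that activates serine proteases of granulocytes, had a control difference of 1.35 ± 0.44 (adjusted p = 0.0603), which was 2.08 without unlesioned control library 1. Ctsf, a cathepsin for which the groups overlapped, had 0.78 ± 0.33 (adjusted p = 0.119).

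All 5 aspartic and serine peptidases rose in controls and in the average. Tripeptidyl peptidase (Tpp1), which removes tripeptides from protein ends, had 165, 85.4 and 153 CPM in unlesioned and 486, 472 and 512 CPM in 4dpl controls. In mutants it had 212, 98.5 and 136 CPM unlesioned and 408, 326 and 328 CPM at 4dpl. All lesioned libraries were above all unlesioned ones, by 1.86 ± 0.32 (adjusted p = 0.0225) in controls and 1.25 ± 0.31 (adjusted p = 0.0544) in mutants.

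Dipeptidyl peptidase (Dpp7), whose window holds the E-box shown above, had 38.4, 31.0 and 57.2 CPM in unlesioned and 148, 149 and 159 CPM in 4dpl controls. The mutant libraries held 47.5, 18.7 and 29.2 CPM unlesioned and 106, 83.5 and 64.2 CPM at 4dpl. The 3 lesioned controls differed little and lay above every mutant library. The lesion difference was 1.85 ± 0.33 (adjusted p = 0.0244) in controls and 1.41 ± 0.33 (adjusted p = 0.0537) in mutants.

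Cathepsin A (Ctsa), a carboxypeptidase that also protects neuraminidase and β-galactosidase, had 530.3, 421 and 661 CPM in unlesioned and 1520.0, 1822 and 1757 CPM in 4dpl controls. In mutants the values were 712, 273 and 570.4 CPM unlesioned and 1365, 1107 and 1144 CPM at 4dpl. Both lesioned groups lay above their unlesioned groups, with 1.66 ± 0.34 (adjusted p = 0.0256) and 1.22 ± 0.34 (adjusted p = 0.0586). The remaining pair were Ctsd, with 2.25 ± 0.51 (adjusted p = 0.0297) in controls and 1.73 ± 0.50 in mutants, the latter 2.36 (adjusted p = 0.0322) without unlesioned mutant library 1, and the carboxypeptidase Scpep1, with 1.54 ± 0.32 (adjusted p = 0.0264). Exons of Gm49369 cover 34.4% of the exon bases of Ctsd, so its level is uncertain.

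Of the sphingolipid and ganglioside hydrolases and their activators, 8 of 10 rose in controls and 9 of 10 in the average. Galc had 30.3, 21.8 and 28.0 CPM in unlesioned and 67.7, 63.0 and 73.6 CPM in 4dpl controls. Its mutant libraries had 37.7, 30.4 and 26.7 CPM unlesioned and 71.0, 69.2 and 51.6 CPM at 4dpl. Its lesioned libraries did not overlap with the unlesioned ones in either genotype, and the SE was among the smallest of the set. The difference was 1.35 ± 0.22 (adjusted p = 0.0214) in controls and 1.02 ± 0.22 (adjusted p = 0.0522) in mutants.

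Acid β-galactosidase (Glb1), which degrades gangliosides and keratan sulfate, had 43.4, 26.2 and 45.9 CPM in unlesioned and 117, 123 and 159 CPM in 4dpl controls. Among mutants it stood at 63.6, 26.7 and 40.1 CPM unlesioned and 111, 96.4 and 84.5 CPM at 4dpl. The differences were 1.79 ± 0.31 (adjusted p = 0.0244) and 1.16 ± 0.31 (adjusted p = 0.0557). All lesioned libraries lay above all unlesioned ones.

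The α subunit of β-hexosaminidase (Hexa), which together with its activator Gm2a degrades ganglioside, had 422, 308 and 519 CPM in unlesioned and 1214, 1387 and 1449 CPM in 4dpl controls. In mutants it had 533, 279 and 357 CPM unlesioned and 1082, 930.1 and 676 CPM at 4dpl. Lesioned libraries were higher by 1.70 ± 0.32 (adjusted p = 0.0252) and 1.201 ± 0.31 (adjusted p = 0.055). Gm2a itself rose by 1.12 in controls.

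The other members called in controls were α-galactosidase (Gla, 1.83), acid ceramidase (Asah1, 1.72), Psap (1.85) and arylsulfatase A (Arsa, 0.81), which removes sulfate from the myelin lipid sulfatide. The Gla difference was 2.43 without unlesioned control library 1. Acid sphingomyelinase (Smpd1), at 0.60 ± 0.27 (adjusted p = 0.137), and the neuraminidase Neu1, at 0.45 ± 0.25 (adjusted p = 0.218), were not called. The differences of the members thus spanned 0.45 to 1.85 within this role.

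All 4 glycosidases rose in controls and in the average. Acid α-glucosidase (Gaa), which releases glucose from glycogen, had 79.0, 54.6 and 89.6 CPM in unlesioned and 272, 274 and 269 CPM in 4dpl controls. The mutant libraries held 123, 52.4 and 69.3 CPM unlesioned and 227, 160.2 and 169.7 CPM at 4dpl. The lesioned controls were nearly equal and above all mutant libraries. The difference was 1.87 ± 0.31 (adjusted p = 0.0214) in controls and 1.19 ± 0.31 (adjusted p = 0.0549) in mutants.

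β-Mannosidase (Manba), which removes the last mannose of N-glycans, had 44.5, 16.5 and 32.7 CPM in unlesioned and 84.4, 92.9 and 84.2 CPM in 4dpl controls. In mutants the values were 42.8, 22.7 and 28.8 CPM unlesioned and 80.3, 66.2 and 56.5 CPM at 4dpl. The groups did not overlap within either genotype, with 1.48 ± 0.33 (adjusted p = 0.0279) and 1.11 ± 0.32 (adjusted p = 0.0624).

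Acid α-mannosidase (Man2b1), which trims the other mannoses, had 569, 306 and 400.0 CPM in unlesioned and 835, 1043 and 1070.0 CPM in 4dpl controls. Its mutant libraries had 685, 391 and 567 CPM unlesioned and 892, 792 and 821 CPM at 4dpl. Its difference was 1.21 ± 0.30 (adjusted p = 0.0348) in controls and 0.61 ± 0.29 (adjusted p = 0.159) in mutants. Fucosidase (Fuca1) differed by 0.81 ± 0.21 (adjusted p = 0.0385) in controls.

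Of the glycosaminoglycan hydrolases, which degrade heparan, dermatan, keratan and chondroitin sulfates, 6 of 7 rose in controls and 7 of 7 in the average. Naglu, an α-N-acetylglucosaminidase of heparan sulfate, had 66.0, 42.5 and 86.6 CPM in unlesioned and 207, 257 and 286 CPM in 4dpl controls. Among mutants it stood at 108, 39.7 and 73.2 CPM unlesioned and 244, 163 and 156 CPM at 4dpl. The difference was 1.94 ± 0.36 (adjusted p = 0.0252) in controls and 1.35 ± 0.36 (adjusted p = 0.0557) in mutants, with no overlap within a genotype.

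α-Iduronidase (Idua), which acts on heparan and dermatan sulfate, had 39.9, 20.8 and 33.0 CPM in unlesioned and 80.5, 72.4 and 75.5 CPM in 4dpl controls. In mutants it had 41.1, 25.7 and 35.8 CPM unlesioned and 59.5, 60.4 and 58.9 CPM at 4dpl. The 3 lesioned mutants were within 2 CPM of each other and below all lesioned controls. The differences were 1.29 ± 0.25 (adjusted p = 0.0256) and 0.80 ± 0.25 (adjusted p = 0.0674).

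β-Glucuronidase (Gusb) had 192, 114 and 257 CPM in unlesioned and 652, 741 and 762 CPM in 4dpl controls. The mutant libraries held 237, 105 and 153 CPM unlesioned and 629, 455 and 301 CPM at 4dpl. The lesioned libraries were higher by 1.94 ± 0.38 (adjusted p = 0.0256) and 1.48 ± 0.37 (adjusted p = 0.0544). The sulfatases Arsb (1.98), Ids (1.39) and Sgsh (0.84) also rose in controls, and the sulfatase Galns had 1.07 ± 0.36 (adjusted p = 0.0651). Arsb shares 39.9% of its exon bases with other gene models, and its mutant difference of 0.97 was 1.84 without unlesioned mutant library 1.

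Of the lipases, thioesterases and phosphatases, 7 of 8 rose in controls and 8 of 8 in the average. Lysosomal acid lipase (Lipa), which frees cholesterol and fatty acids from cholesteryl esters and triglycerides, had the smallest p of the set in controls. It had 82.7, 39.3 and 82.6 CPM in unlesioned and 460.2, 336 and 278 CPM in 4dpl controls. In mutants the values were 75.5, 53.0 and 59.3 CPM unlesioned and 315, 252 and 143 CPM at 4dpl. No lesioned library overlapped with an unlesioned one. The difference was 2.39 ± 0.36 (adjusted p = 0.0214), a fold of 5.25, in controls and 1.92 ± 0.35 (adjusted p = 0.0522), a fold of 3.78, in mutants.

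Phospholipase D family member Pld3, an exonuclease of the lysosome, had 132, 111 and 199.5 CPM in unlesioned and 673, 744 and 695 CPM in 4dpl controls. Its mutant libraries had 182, 53.0 and 133 CPM unlesioned and 507, 396 and 347 CPM at 4dpl. The lesioned controls stood above all mutant libraries. The difference was 2.25 ± 0.39 (adjusted p = 0.0232) in controls and 1.76 ± 0.38 (adjusted p = 0.0522) in mutants.

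Tartrate-resistant acid phosphatase (Acp5), made by macrophages and osteoclasts, had 47.1, 14.6 and 16.7 CPM in unlesioned and 121, 177 and 81.7 CPM in 4dpl controls. Among mutants it stood at 10.6, 6.39 and 7.90 CPM unlesioned and 41.0, 55.6 and 27.0 CPM at 4dpl. Unlesioned control library 1 was well above the other unlesioned libraries. The lesion difference was 2.28 ± 0.45 (adjusted p = 0.0256) in controls, 3.05 without that library, and 2.31 ± 0.45 (adjusted p = 0.0522) in mutants.

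The palmitoyl thioesterases Ppt1 (1.22) and Ppt2 (0.66), the phospholipase Pla2g15 (1.36) and the acid phosphatase Acp2 (1.46) also rose in controls. Plbd2 was at 0.80 ± 0.28 (adjusted p = 0.0743) in controls and at 1.04 ± 0.28 (adjusted p = 0.0573) in mutants. Gm20460 covers 36.6% of the exon bases of Ppt2.

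Progranulin (Grn), a secreted and lysosomal protein that is cut into granulins and whose loss disturbs lysosomal enzymes, had 1587, 938 and 1653 CPM in unlesioned and 3727, 4563 and 4665 CPM in 4dpl controls. In mutants it had 2031, 884 and 1282 CPM unlesioned and 3897, 2629 and 2332 CPM at 4dpl. Both lesioned groups were above their unlesioned groups, by 1.63 ± 0.38 (adjusted p = 0.0307) and 1.08 ± 0.37 (adjusted p = 0.0819).

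**Figure D3:**
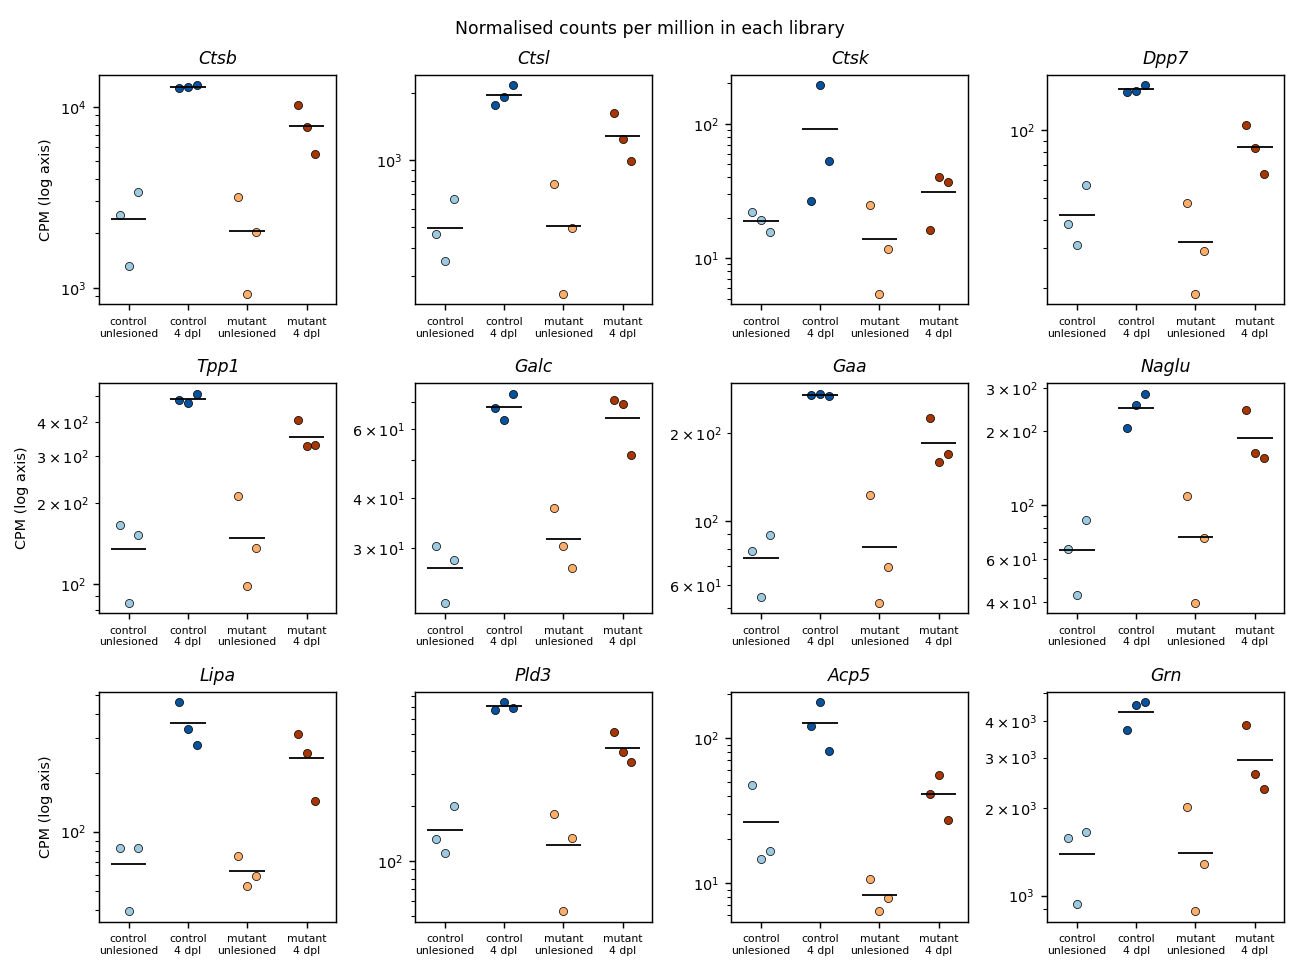
Normalised CPM (log axis) in each of the 3 libraries per group for 12 members, with a line at the group mean. The lesioned libraries sit above the unlesioned ones in each genotype except for Ctsk, where control 4dpl library 2 stands alone near 195 CPM.

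Markers of microglia and macrophages were higher at 4dpl together with the members. The 14 listed markers, none at 0 in any library, summed to 7102 to 11292 CPM in unlesioned and 16495 to 25356 CPM in 4dpl controls, and to 5945 to 13448 and 15827 to 21088 CPM in mutants. Of the 14, 5 rose in controls (Csf1r, C1qb, C1qc, Fcrls and Adgre1, with a list median of 1.28), 0 passed in mutants (median 0.98), and 12 rose in the average, with Tyrobp and Ptprc not called. The summed members divided by the summed markers gave 1.65 to 2.13 in unlesioned controls and 2.68 to 3.75 in 4dpl controls. In mutants this ratio was 1.65 to 1.79 and 2.13 to 2.59. In both genotypes the ratio was higher in every lesioned library than in every unlesioned one. In bulk tissue, a larger number of cells of one type and more RNA per cell cannot be told apart, and the part of these cells in the result was not tested.

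**Figure D4:**
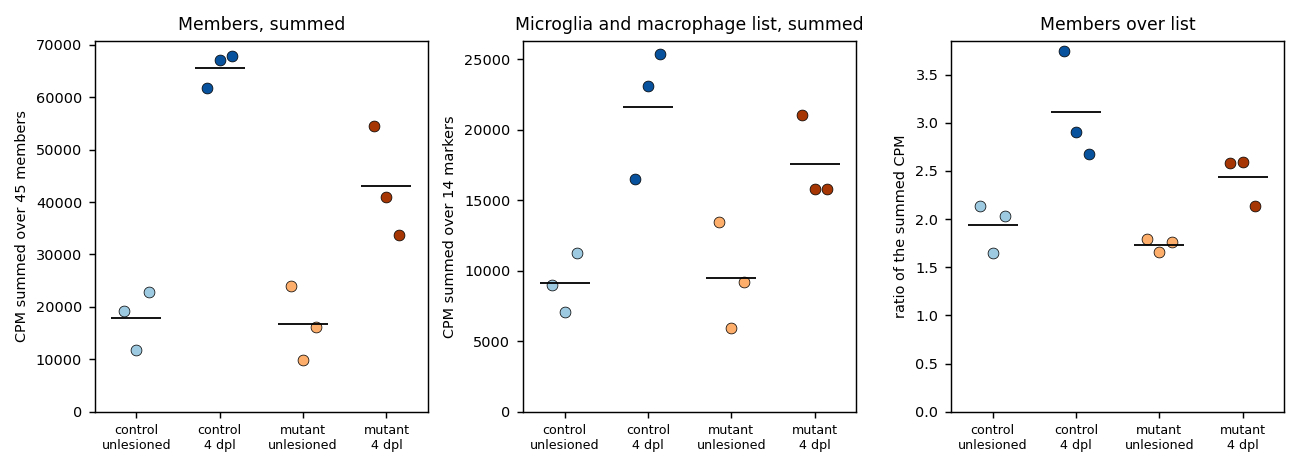
Summed CPM of the 45 members (left), summed CPM of 14 microglia and macrophage markers (middle) and their ratio (right), with 1 point per library and a line at the mean of 3. Lesioned libraries are above unlesioned libraries of the same genotype in all 3 panels, and 4dpl mutants are below 4dpl controls in the left panel.

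Markers of other cell types were summed in the same way. The 5 neutrophil markers were lower in lesioned controls, at 23161 to 28389 CPM against 38089 to 80228 CPM, and 0 were called in either genotype. In mutants they spanned 23251 to 94194 and 17050 to 85139 CPM. Markers of mature oligodendrocytes summed to 16392 to 20618 CPM in unlesioned and 23393 to 34263 CPM in 4dpl controls, with 1 of 8 called higher. That list was split. Mobp (1.33) and Mbp (1.31) had the largest log2 differences, Mog (0.08) and Mag (0.03) were near 0, and Cldn11 (-0.39) and Opalin (-0.48) were below 0. Monocyte markers, at 11267 to 23812 and 17656 to 25909 CPM in controls, overlapped between the groups, with 1 called higher and 1 lower of 8. Of the shorter lists, 3 of 5 markers of oligodendrocyte progenitors and 2 of 6 of astrocytes were called higher in controls. So were 2 of 4 of fibroblasts and 2 of 6 of osteoclasts, against 5.12% of all genes. Of the markers on these lists not called, C1ql1 (-1.16), Calcr (-2.40) and Mmp9 (-0.70) were below 0 and the rest above 0, with Dcn at 0.03. The osteoclast sum spanned 569 to 3119 CPM in unlesioned and 959 to 1436 CPM in 4dpl controls. Of the markers of neurons, endothelium and pericytes, lymphocytes and erythroid cells, 0 were called. The erythroid sum spanned 27820 to 80722 CPM in unlesioned and 9600 to 33521 CPM in 4dpl controls. None of these markers was called in mutants, and their part in the members' values was not tested.

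The rest of the lysosomal pathway, given as lists next to the 45 members, rose in part. Of 25 other luminal hydrolases, 16 rose in controls and 0 fell (median 1.05), and 17 rose in the average. Over all genes tested, 5.12% were called higher in controls (median -0.36) and 14.2% in the average (median -0.28). Among those with the smallest p were the sulfatase Arsk (1.30 ± 0.24) and the sialate esterase Siae (1.33 ± 0.25). Of 13 genes for delivery and activation of the enzymes, 9 rose in controls (median 1.05) and 12 in the average, led by the cargo receptor Lman1 (1.18 ± 0.26), its partner Mcfd2 (1.38 ± 0.31) and Nagpa (1.23 ± 0.28), which uncovers the mannose 6-phosphate tag. The sorting receptor Sort1 was the one not called in the average.

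Of 9 regulators of lysosomal genes, 3 rose in controls (median 0.66) and 6 in the average. Those 3 were Rragc (1.13 ± 0.30), Rragd (0.98 ± 0.28) and Flcn (1.005 ± 0.29), which act on the lysosome surface in nutrient signalling to mTOR. The transcription factor Tfe3 was at 0.75 ± 0.26 (adjusted p = 0.0709) and Tfeb at 0.11 ± 0.25 (adjusted p = 0.771). Of 6 cathepsin inhibitors, 3 rose in controls (median 0.58), namely Cst7 (1.35 ± 0.29), Serpinb6a (0.84 ± 0.19) and Cstb (1.32 ± 0.33). Of 10 lysosome membrane proteins, 5 rose in controls (median 0.95) and 8 in the average, with Cd68 (2.17 ± 0.39), Cd63 (1.37 ± 0.26) and the cystine carrier Ctns (1.08 ± 0.23) at the smallest p. In mutants 0 genes of any of these 5 lists were called, and the medians were 0.89, 0.96, 0.56, 0.65 and 0.89. Over all genes tested the mutant median was -0.18.

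The second question was whether the mutants differed from controls in these genes. In unlesioned tissue 0 of 45 were called, as were 0% of all genes. The median log2 difference, mutant minus control, was -0.06, with 25 members below 0 and 2 at an unadjusted p under 0.05 by edgeR, and DESeq2 called 0 as well. With 1 library left out that median ran from -0.33 to 0.13, so its sign changed. At 4dpl 0 of 45 were called and 0% of all genes, but 41 of 45 were below 0, with a median of -0.43 against 0.05 over all genes, and 3 had an unadjusted p under 0.05. DESeq2 called 1 member lower in 4dpl mutants (Acp5, adjusted p = 0.0260) when fitted to all libraries, where 0.0804% of all genes were called lower. Fitted to the 4dpl libraries alone it called 3 lower (Acp5, Dpp7 and Pld3), with 0.457% of all genes.

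For 22 of 45 members every lesioned mutant library was below every lesioned control library, where 5.44% of all genes showed this, and for 0 members was every mutant library above, against 7.34% of all genes. The 22 were Ctsb, Ctsh, Ctsl and Ctsz of the cysteine peptidases, all 5 aspartic and serine peptidases, Hexa, Glb1, Gm2a, Gaa, Manba, Gusb, Idua, Pld3, Pla2g15, Ppt1, Ppt2, Acp2 and Acp5. Mutant 4dpl library 3, with the most oligodendrocyte transcript, had the lowest summed level of the members at 4dpl, 33769 CPM, against 54481 and 41018 CPM in mutant libraries 1 and 2 and 61799 to 67895 CPM in controls. Without it the median difference was -0.39 and 0 were called. The microglia and macrophage markers were lower as well in median (-0.31, 12 of 14 below 0), with 0 called, and their part in the result was not tested.

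Acp5 had the smallest p of the members in both genotype comparisons. The log2 difference, mutant minus control, was -1.65 ± 0.44 (adjusted p = 0.693) in unlesioned tissue and -1.62 ± 0.44 (adjusted p = 0.308) at 4dpl, and no mutant library reached the lowest control library of the same condition. The unlesioned difference was -0.91 without unlesioned control library 1. That library also had the highest sum of 6 osteoclast markers, 3119 CPM against 569 and 1332 CPM in the other unlesioned controls, nearly all of it from Mmp9, which neutrophils also express. At 4dpl those markers summed to 959 to 1436 CPM in controls and 869 to 2772 CPM in mutants, again mostly Mmp9 (0.57, mutant minus control). Of the other 5, the fusion genes Ocstamp (-2.27 ± 0.58, adjusted p = 0.275) and Dcstamp (-1.55 ± 0.72, adjusted p = 0.723), with Oscar (-0.65) and Nfatc1 (-0.14), had values below 0 like Acp5, and Calcr was at 0.81. Ocstamp stood at 3.48, 10.4 and 2.30 CPM in 4dpl controls and 0.455, 1.56 and 1.33 CPM in 4dpl mutants, without overlap. None of the 6 was called, and the part of these cells in the Acp5 values was not tested.

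For Dpp7 it was -0.85 ± 0.32 (adjusted p = 0.538) at 4dpl and -0.41 ± 0.32 in unlesioned tissue. Ctsk was at -1.56 ± 0.64 (adjusted p = 0.602) at 4dpl, and at -0.35 without control 4dpl library 2, the library with 195 CPM. Ctso was at 0.60 ± 0.28 (adjusted p = 0.95) in unlesioned tissue. At 4dpl Ctso was at 0.04 ± 0.28, with a sign that changed with the scaling.

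**Figure D5:**
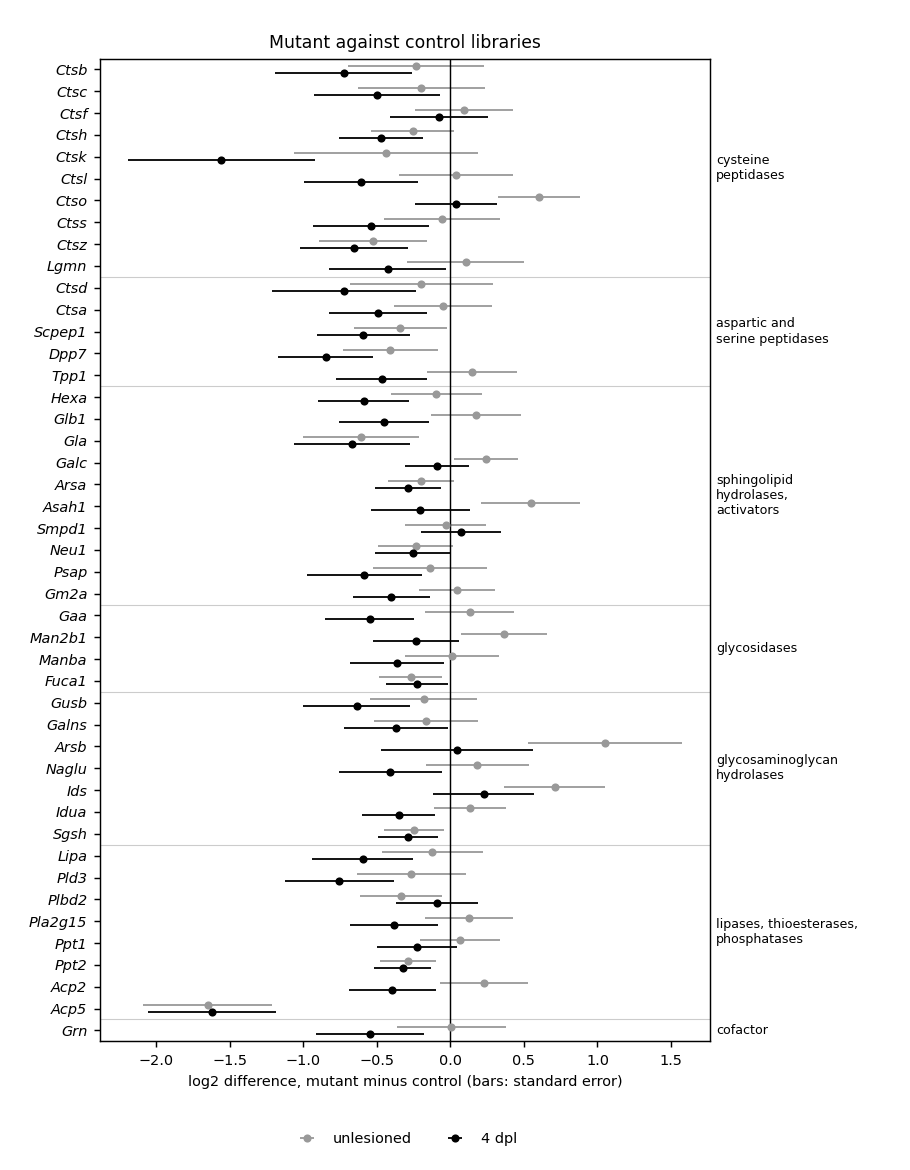
Log2 difference between mutant and control libraries for the 45 members by role, in unlesioned tissue (grey) and at 4dpl (black), with bars for the standard error. Unlesioned points scatter around 0, 41 of 45 of the 4dpl points are to the left of 0, and Acp5 is the farthest left in both.

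The change after lesion itself was compared between the genotypes by the interaction term. The mutant difference was smaller than the control difference for 41 of 45 members (91.1%), against 45.2% of all genes, with a median of -0.46 against 0.07. All members were read from the same 12 libraries, so 41 of 45, here and between the genotypes at 4dpl, is not a count of independent observations. None of the 45 had an adjusted p under 0.05 or an unadjusted p under 0.05, and 0% of all genes were called, with 0 members called by DESeq2, so a lesion change called in controls and not in mutants was not shown to differ between them. The term ranged from -1.12 ± 0.88 for Ctsk to 0.24 ± 0.40 for Plbd2, and that of Ctsk was 0.09 without control 4dpl library 2. Its median was between -0.69 and -0.10 with 1 library left out, the latter without unlesioned mutant library 1, the unlesioned mutant with the highest summed level of members (24077 CPM against 9838 and 16154).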

How the data were processed

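Gene counts of 12 libraries of total RNA were used. The authors deposited raw counts per Ensembl gene (GRCm38 release 100, featureCounts of uniquely mapped exon reads) from paired-end reads aligned to mm10. The study's methods name BWA, whereas the submitters' processing notes list STAR. Reads of overlapping genes may be lost or shared under such counting. All 37 mitochondrial genes were at 0 in every library. Totals ranged from 34805086 to 67251544 counts.

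Here counts were filtered by expression, scaled by TMM and tested with edgeR 4.0.16 (quasi-likelihood, R 4.3.3) on all 12 libraries with 1 mean per group, without a replicate block. Genes were called at p under 0.01 and Benjamini-Hochberg adjusted p under 0.05 over 31109 genes. CPM and RPKM were computed from the counts. The test was also run on simulated counts with 200 changed genes, and the outcome of that run is not reported here. Alternatives used DESeq2 1.42.0, limma 3.58.1, other scalings, filters and fits, and each library left out in turn.

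The members and lists were chosen with earlier results of these data known. Values per library are given for the 3 smallest p in controls in each role of 4 or more members, for members with an unadjusted p under 0.05 between genotypes, and for Grn, Galc and Hexa. Other lists are represented by their 3 smallest p in controls, except that 1 such gene is not reported here.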

Additional observations from a re-analysis of the deposited data

How the results depend on the processing

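The 39 members called in controls became 40 with limma voom, 41 with DESeq2, 38 with the median-ratio scaling and 31 with a minimum of 10 counts in every library, where 6.81%, 8.42%, 4.89% and 3.87% of all genes were called higher, and 0 to 42 with 1 library left out (0.003% to 12.2%). The cause of the low counts was not tested. In mutants the count of 0, with the share of all genes called higher in the same fit, became 28 (4.28%) with DESeq2 on all libraries, 28 (4.74%) with DESeq2 on the mutant libraries alone, 26 (4.42%) with the newer edgeR fit, 22 (1.24%) with voom, 41 (11.2%) with voom and quality weights, 14 (0.621%) without a filter, 35 (9.55%) at an adjusted p under 0.10, 3 (0.151%) with edgeR on the mutant libraries alone (Gla, Lipa and Acp5), and 0 to 32 (0% to 7.72%) with 1 library left out. The averaged count was 40 to 45 under every setting (10.2% to 21.5%). Between the genotypes at 4dpl, 0 became 1 (Acp5) with DESeq2 on all libraries and 3 (Acp5, Dpp7 and Pld3) with DESeq2 on the 4dpl libraries. In unlesioned tissue and in the interaction the count was 0 under every setting run. The 4dpl genotype difference of Ctso, 0.04, changed sign with DESeq2 (-0.00354), with the median-ratio scaling (-0.00357), with quality weights (-0.0434), without a filter (-0.0444) and between -0.10 and 0.18 with 1 library left out. Median-ratio scaling moved the median of all genes from -0.18 to -0.32 in mutants, a shift to which changes of single genes are relative. Over single members and settings, 1759 values kept direction and side of the threshold, 196 lost and 293 gained a call, and 6 changed sign. With the replicate number as a block, 40 members were called in controls, 0 in mutants, 44 in the average and 0 in the interaction. In that fit 7.51%, 0.0129%, 15.6% and 0% of all genes were called higher. Libraries of the same number correlated by 0.175, 0.039 and 0.182 in controls and by -0.040, 0.055 and -0.070 in mutants, and not every library correlated best with its own number. The study's methods number some libraries differently from the labels, so neither the block nor these correlations show whether lesioned and unlesioned libraries came from the same mice. The effect of depth on the calls was not tested.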

Other observations

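Lamp1, a major protein of the lysosome membrane, was chosen after its values were seen because it did not follow the luminal enzymes. It had 866, 386 and 439 CPM in unlesioned controls and 388, 450.4 and 535 CPM in 4dpl controls. In mutants it had 782, 598 and 699 CPM unlesioned and 1072, 1161 and 2162 CPM at 4dpl. All lesioned mutant libraries lay above every other library, and the lesioned controls did not separate from the unlesioned ones. The lesion difference was -0.30 ± 0.36 (adjusted p = 0.558) in controls and 1.08 ± 0.36 (adjusted p = 0.0767) in mutants. The genotype difference at 4dpl was 1.68 ± 0.37 (adjusted p = 0.203), and the interaction was 1.38 ± 0.51 (adjusted p = 1), so neither passed the correction over all genes. Mutant 4dpl library 3, the highest at 2162 CPM, also had the most mature oligodendrocyte transcript, and the part of those cells was not tested.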
